A study of Mus musculus with 6 samples.

Results

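Fibronectin and 9 integrin subunits were followed in mouse fibroblasts given IPRN or the vehicle DMSO. The members were taken by gene symbol: fibronectin itself (Fn1), the integrin subunits of its receptors (Itga5, Itgav, Itgb1, Itgb3 and Itgb5), the collagen-binding α subunits Itga1 and Itga11, and the laminin-binding α subunits Itga3 and Itga6. Each of these 10 symbols matched 1 of 55401 gene models, and all 10 passed the filter on low counts. The cells were NIH3T3, an immortalised mouse embryonic fibroblast line, of wild-type genotype per the labels, with 3 libraries of DMSO-treated and 3 of IPRN-treated cells. Angelicin, a furanocoumarin from plants, appears in the title of the series, and its design text has NIH3T3 stimulated by TGF-β together with hydrogen peroxide as a model of cancer-associated fibroblasts. Dose and time are not in the labels, nor is it stated there if vehicle libraries came from stimulated cells. NIH3T3 is a single line, so the libraries carry no variation between animals.

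Fibronectin is a large secreted glycoprotein that cells assemble into fibrils, and TGF-β is a classical inducer of its transcription in fibroblasts. Integrins are dimers of an α and a β chain that span the membrane, bind matrix outside and connect to actin inside through talin, kindlin and vinculin. The α chain largely sets the ligand: α5 with β1 is the main fibronectin receptor, αv with β1, β3 or β5 reads the RGD motif of fibronectin and vitronectin, α1 and α11 with β1 bind collagens, and α3 and α6 with β1 bind laminins.

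Total counts per library ran from 60320282 to 78629444. All 10 fibroblast markers were above the filter and summed to between 15625 and 18869 CPM (counts scaled to library size, normalised by the TMM method), most of it from Col1a1 and Col1a2. By edgeR, 3 of these 10 fell under IPRN (Pdgfra, Dcn and Lum, log2 fold changes of -0.74, -1.05 and -1.49) and 0 rose, against 3.01% lower and 2.46% higher of all tested genes, and their part in the results below was not tested. Markers of endothelium, epithelium and platelets summed to at most 3.40, 2.01 and 8.18 CPM in any library. Transcripts of liver, an organ that secretes fibronectin, were low in DMSO 1 and IPRN 3 (22 markers summed to 5.08 and 8.06 CPM) and higher in the other 4 libraries (44.9 to 132.9 CPM). Of 8 leukocyte markers, Cd3e was at 0 in every library, and the sum was 2.48 to 7.70 CPM in DMSO and 8.29, 8.42 and 35.8 CPM in IPRN 2, 1 and 3.

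Per length, fibronectin transcripts were the most abundant of the members and those of the collagen receptor chain Itga1 the least. On the deposited FPKM scale (fragments scaled to gene length and library size, from the authors), the levels in DMSO were 385.1 ± 5.63 for Fn1 (SD, n = 3), 282.2 ± 7.82 for Itgb1, 59.9 ± 1.78 for Itga5, 53.4 ± 1.61 for Itgb5 and 10.2 ± 0.371 for Itgav. Levels of Itga11, Itga3 and Itga6 were 3.56 ± 0.0816, 3.37 ± 0.276 and 3.34 ± 0.10 FPKM, and neighbours within this trio overlapped in range. Itgb3 stood at 2.12 ± 0.734 and Itga1 at 0.0711 ± 0.00638 FPKM. The order in IPRN was the same, but there Itga6 lay below Itga3 without overlap (3.02 ± 0.220 against 3.96 ± 0.328 FPKM). The first 5 places and the last 2 were unchanged when normalised CPM were divided by the length of the longest coding transcript instead, while Itga6 then moved ahead of Itga3 and Itga11. Among all listed genes, Fn1 ranked 7th and Itgb1 78th by mean CPM, which is not scaled to length. By mean FPKM they ranked 105th and 187th.

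**Figure D1:**
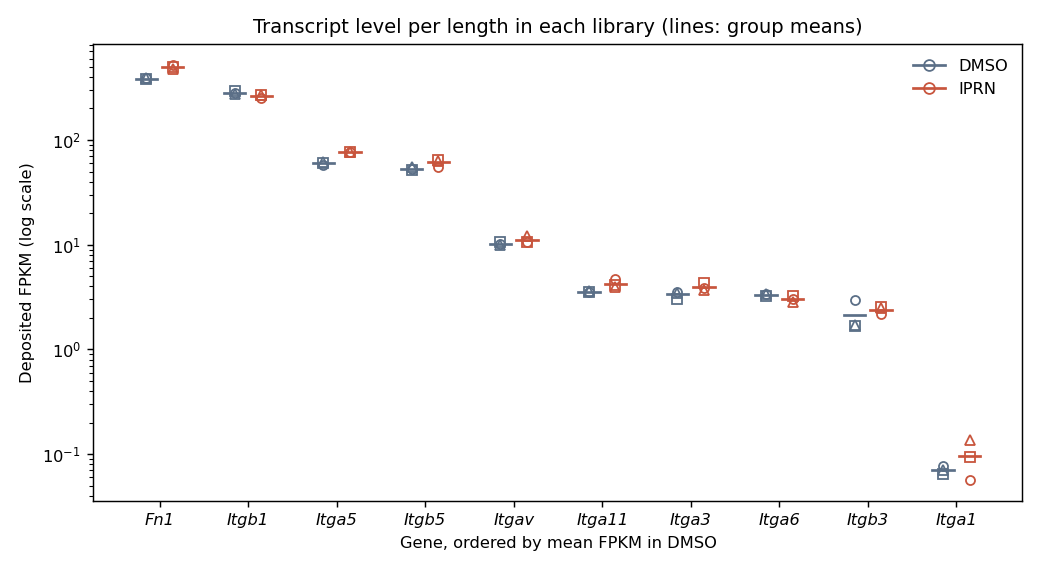
Deposited FPKM (log axis) of the 10 genes in each library, DMSO in blue and IPRN in red, with horizontal lines at group means. Circles, squares and triangles are replicates 1, 2 and 3. Fn1 lies highest at 385.1 FPKM in DMSO and Itga1 lowest at 0.0711.

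The comparison of IPRN with DMSO asked whether the compound altered the transcripts of fibronectin and its receptors. Fn1 rose 1.29-fold and Itga5, which encodes the α chain of the main fibronectin receptor, rose 1.28-fold. By edgeR, with Benjamini-Hochberg adjusted p-values over all 17159 tested genes, 2 of the 10 members were called, against 5.47% of all tested genes. Both were higher (2.46% of all tested genes), and 0 members were lower (3.01% of all tested genes). In bulk RNA, a change in the number of cells of a kind and a change in RNA per cell cannot be told apart. At an unadjusted p under 0.05, 4 members were higher and 1 lower (11.2% and 10.8% of all tested genes). DESeq2 called 2 members higher and 0 lower, against 7.49% and 7.28% of the 12917 genes to which it gave an adjusted p. The median log2 fold change of the 10 was 0.21, against 0.0016 over all tested genes. For 6 members DMSO and IPRN ranges stood clear of each other, 5 higher and 1 lower in IPRN. This held for 29.6% of all tested genes, 14.9% higher and 14.7% lower.

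The ligand came first in abundance. Fn1 measured 5058, 4915 and 5061 CPM in DMSO 1, 2 and 3 and 6916, 6365 and 6142 CPM in IPRN 1, 2 and 3. Every IPRN library was above every DMSO library, and IPRN 1 was the highest. The change was 0.37 ± 0.052 on the log2 scale (SE), with an edgeR adjusted p of 0.0153. Fn1 accounted for 0.492% to 0.505% of all counts in DMSO and 0.622% to 0.681% in IPRN. Liver transcripts summed to 5.08, 71.4 and 44.9 CPM in DMSO 1, 2 and 3 and to 132.9, 48.3 and 8.06 CPM in IPRN 1, 2 and 3, the same order as Fn1 within IPRN but not within DMSO. With a term for the libraries that hold liver transcripts, the log2 fold change was 0.37 (edgeR adjusted p = 0.0411). Leaving out DMSO 1, 2 or 3 ended the call (adjusted p of 0.0740, 0.0854 and 0.0670), as did leaving out IPRN 2 (0.0509), while the log2 fold change stayed between 0.32 and 0.40 in all 6 fits with 1 library left out. Fn1 (ENSMUSG00000026193) spans positions 71585520 to 71653175 on the minus strand of chromosome 1 (GRCm38). It shares 292 exon bases with Apol7d on the opposite strand, a model that held 0 to 29 counts per library.

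Among the fibronectin- and RGD-binding subunits, Itga5 was the only one of 4 called by edgeR. It measured 319.7, 327.0 and 339.9 CPM in DMSO and 426.0, 415.1 and 419.1 CPM in IPRN. The groups were far apart relative to their spread, with means of 328.9 ± 10.2 and 420.0 ± 5.51 CPM (SD, n = 3). The log2 fold change was 0.35 ± 0.044 (SE) at an edgeR adjusted p of 0.0108, and 0.35 with an adjusted p of 0.0313 under the liver term. Without DMSO 1 or DMSO 2 the adjusted p was 0.0691 and 0.0714. Leaving out DMSO 1 and IPRN 3 together gave Itga5 a log2 fold change of 0.33 (adjusted p = 0.193) and Fn1 one of 0.41 (0.173). Itga5 (ENSMUSG00000000555) lies at positions 103344286 to 103366763 on the minus strand of chromosome 15, with no exon shared with another model.

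The promoter of Itga5 is shown beside that of Itgb1, its partner chain, because both chains form 1 receptor while their values lay on opposite sides of DMSO. Both are the 250 bases before the RefSeq start on GRCm38.p6, chr15:103366792-103367041 (minus strand) and chr8:128685404-128685653 (plus strand), 5′ to 3′, with matches to the motifs below in capitals.
Itga5: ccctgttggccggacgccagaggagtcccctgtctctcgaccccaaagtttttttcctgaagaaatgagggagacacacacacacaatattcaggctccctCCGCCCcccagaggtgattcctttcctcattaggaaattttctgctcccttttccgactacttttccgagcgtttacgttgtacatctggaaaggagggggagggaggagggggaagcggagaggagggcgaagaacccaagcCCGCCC
Itgb1: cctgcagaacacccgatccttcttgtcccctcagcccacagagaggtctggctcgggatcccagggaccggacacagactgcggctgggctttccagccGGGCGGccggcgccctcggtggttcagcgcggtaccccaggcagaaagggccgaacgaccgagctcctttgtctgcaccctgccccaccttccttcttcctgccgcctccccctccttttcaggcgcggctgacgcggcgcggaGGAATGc
Windows were found for 7 of the 10 members, that is all but Fn1, Itgb3 and Itga6. Both strands were searched for the GC box GGGCGG, the TATA box TATAAA, the cyclic AMP element TGACGTCA, the AP-1 site TGANTCA, the TEAD site GGAATG and the CArG box of SRF. The Itga5 window held 2 GC boxes, beginning 149 and 6 bases before the start, and no other match. The Itgb1 window held a GC box beginning 151 bases before the start and a TEAD match 7 bases before it. GC boxes occurred in 4 of the 7 members (Itga5, Itgb5, Itgb1 and Itga3), against 32.7% of 32851 windows. Members are counted per gene, and Itga3 had more than 1 window. The GC content of the member windows was 50.8% to 68.4%, against a median of 52.4% over all windows, and the background was not matched for it. The TEAD letters occurred in 1 of 7 (12.6% of all windows). The TATA box, the cyclic AMP element, the AP-1 site and the CArG box, present in 12.4%, 1.55%, 6.75% and 1.47% of all windows, matched in 0 of the 7.

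Itgav encodes the αv chain, shared by several RGD receptors. It measured 121.4, 127.3 and 119.3 CPM in DMSO and 130.4, 125.9 and 142.6 CPM in IPRN. The groups overlapped, since IPRN 2 lay below DMSO 2. Its log2 fold change of 0.12 (95% interval -0.03 to 0.26, per gene and unadjusted, as are all intervals here) did not pass (edgeR adjusted p = 0.334). Itgav shares 634 exon bases with Gm13684, which held 4 to 19 counts per library.

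The β3 and β5 chains, which pair with αv, had higher means in IPRN than in DMSO without passing the test. Itgb5, whose product joins αv in a vitronectin receptor, measured 210.0, 205.3 and 218.8 CPM in DMSO and 224.4, 253.1 and 245.2 CPM in IPRN. The groups did not overlap, with IPRN 1 the lowest of its group. The log2 fold change was 0.19 (95% interval 0.05 to 0.33, edgeR adjusted p = 0.116), and without IPRN 1 it was 0.24 with an adjusted p of 0.0337. Itgb3, the β chain of the αvβ3 receptor, measured 19.5, 11.01 and 11.3 CPM in DMSO and 14.4, 16.7 and 16.1 CPM in IPRN. DMSO 1 held the highest value of all 6 libraries, and the other 2 DMSO libraries held the lowest. The log2 fold change was 0.18 (interval -0.36 to 0.72, adjusted p = 0.721). Without DMSO 1 it was 0.50 (adjusted p = 0.122), and without DMSO 2 it was 0.04 (0.964), so the size of this difference was set by single DMSO libraries.

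Itgb1 encodes the β1 chain that all the α chains here can use. It measured 1278, 1317 and 1253 CPM in DMSO and 1154, 1206 and 1216 CPM in IPRN. Every IPRN library was below every DMSO library, but the log2 fold change of -0.11 (interval -0.21 to -0.0028) did not pass (edgeR adjusted p = 0.214). Across the 14 alternative fits it ran from -0.13 to -0.08 and was called in 0 of them. Set beside Itga5, the FPKM of Itgb1 was 4.83, 4.87 and 4.45 times that of Itga5 in DMSO and 3.27, 3.51 and 3.51 times in IPRN, a ratio chosen after its values were seen.

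**Figure D2:**
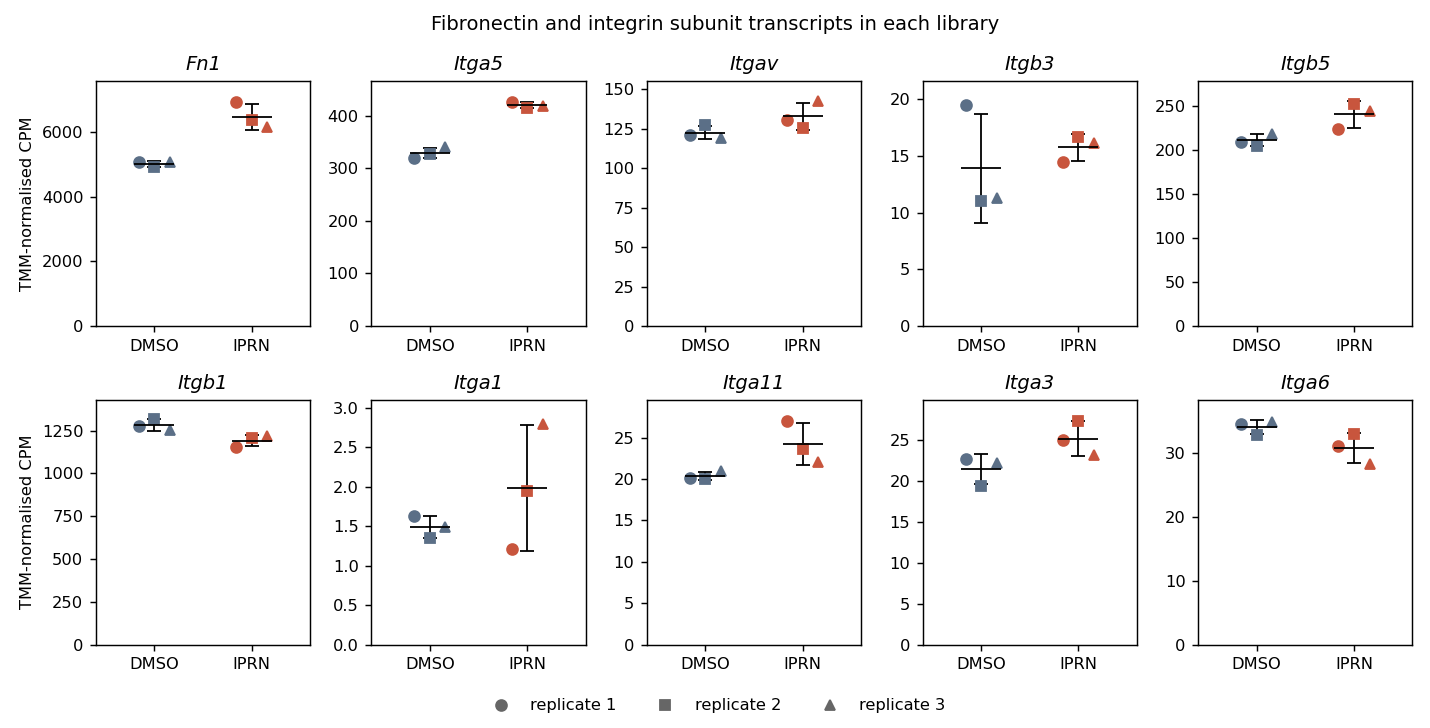
TMM-normalised CPM of each gene in the 3 DMSO (blue) and 3 IPRN (red) libraries, each axis starting at 0, with the mean as a horizontal bar and the SD as whiskers. Fn1, Itga5, Itgb5, Itgb1, Itga11 and Itga3 separate by group, as do 29.6% of all tested genes. The DMSO 1 circle of Itgb3 lies at 19.5 CPM above the other DMSO libraries at 11.01 and 11.3.

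The collagen-binding α chains had positive log2 fold changes that did not pass. Itga11, a receptor chain for fibrillar collagens on fibroblasts, measured 20.1, 19.98 and 20.9 CPM in DMSO and 27.1, 23.6 and 22.1 CPM in IPRN. The groups did not overlap and IPRN 1 was highest, with a log2 fold change of 0.25 (interval 0.03 to 0.48, edgeR adjusted p = 0.180). Itga1, which binds collagen IV among others, had the fewest counts of the members, with 98, 98 and 117 in DMSO and 86, 145 and 180 in IPRN. Its CPM values were 1.63, 1.35 and 1.49 in DMSO and 1.21, 1.94 and 2.79 in IPRN, so that IPRN held both the lowest and the highest value. The log2 fold change of 0.41 had an interval from -0.37 to 1.19 (adjusted p = 0.550), and it was 0.08 without IPRN 3 (0.927) and 0.67 without IPRN 1 (0.199). Itga1 shares 685 exon bases with Gm49395, which held 2 to 11 counts.

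The laminin-binding α chains differed in sign from each other. Itga3 measured 22.7, 19.4 and 22.3 CPM in DMSO and 25.1, 27.4 and 23.2 CPM in IPRN, without overlap between the groups. Its log2 fold change was 0.23 (interval -0.01 to 0.47, edgeR adjusted p = 0.241). Itga6 measured 34.6, 32.8 and 34.8 CPM in DMSO and 31.1, 32.9 and 28.3 CPM in IPRN. The groups overlapped through DMSO 2 and IPRN 2, and the log2 fold change was -0.15 (interval -0.34 to 0.04, adjusted p = 0.350).

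Read by ligand class, the log2 fold changes of fibronectin-binding chains overlapped in range with those of collagen- and laminin-binding chains. In edgeR, 1 of 4 fibronectin- and RGD-binding subunits was called, against 5.47% of all tested genes. The 4 had a median log2 fold change of 0.19 and a range of 0.12 to 0.35. At an unadjusted p under 0.05, 2 of the 4 were higher and 0 lower (11.2% and 10.8% of all tested genes). DESeq2 called 1 higher and 0 lower (7.49% and 7.28%). The sets are unlike, since this one mixes α and β chains (Itga5, Itgav, Itgb3 and Itgb5). The collagen- and laminin-binding set holds α chains only, and Itgb1 is in neither. Of the 4 collagen- and laminin-binding chains 0 were called, with a median of 0.24 and a range of -0.15 to 0.41. At an unadjusted p under 0.05, 1 of them was higher (11.2% of all tested genes), and DESeq2 called 0 (7.49% higher and 7.28% lower). The 0.41 was that of Itga1, with 86 to 180 counts per library and an interval of -0.37 to 1.19. Ratios of Itga5 and Itgav to each of these 4 chains, 8 in all, were compared between the groups by two-sided exact permutation tests. Having 3 libraries per group makes 0.1 the smallest attainable p, so no ratio could have passed at 0.05. The p-values of these ratios therefore cannot decide whether the classes differ, and only sizes and overlap are informative. Only the ratio of Itga5 to Itga6 separated the groups without overlap. Its log2 value was 3.21, 3.32 and 3.29 in DMSO and 3.78, 3.66 and 3.89 in IPRN, a difference of 0.50 (exact p = 0.1, adjusted 0.571 over the 8). The other 7 differences ran from -0.22 to 0.26, with exact p-values from 0.2 to 1 and adjusted values of 0.571 or 1. The ratio of Itga5 to Itga11 was one of these, at 4.01 ± 0.0231 in DMSO and 4.12 ± 0.135 in IPRN on the log2 scale (SD, n = 3).

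**Figure D3:**
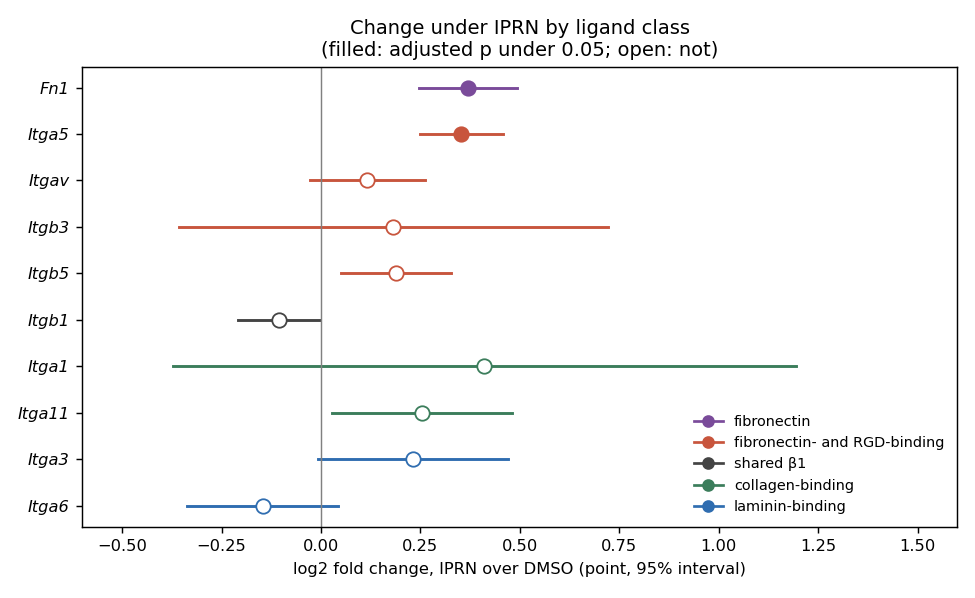
Log2 fold change of IPRN over DMSO for each gene (point) with its 95% interval (line), coloured by ligand class. Filled points mark the genes called by edgeR, Fn1 at 0.37 and Itga5 at 0.35, and the intervals of the other classes overlap that of Itga5 except for Itgb1 and Itga6.

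Among the 6 α chains as a pool, Itga5 held most of the transcripts per length. Its share of their summed FPKM was 73.8%, 74.4% and 75.0% in DMSO and 77.4%, 77.2% and 77.4% in IPRN. Shares of Itga6 were 4.30%, 4.02% and 4.14% in DMSO and 3.04%, 3.30% and 2.81% in IPRN. Neither pair of groups overlapped, and the same held with lengths from the longest coding transcript (68.8% ± 0.714 against 72.6% ± 0.166 for Itga5 and 7.25% ± 0.232 against 5.41% ± 0.434 for Itga6, SD, n = 3). Together, Itga5 and Itgav held 86.6% to 87.7% of the FPKM in DMSO and 88.0% to 89.4% in IPRN. The mean share of Itgav alone was 12.7% in DMSO and 11.2% in IPRN. The laminin-binding pair held 7.83% to 8.82% in DMSO and 6.50% to 7.70% in IPRN. For both pairs the groups stood clear of each other with either length, and these shares were not tested. The collagen-binding pair held 4.51% ± 0.0568 and 4.38% ± 0.368 of the FPKM, which differed by less than the spread of the IPRN libraries. Shares depend on one another, so a larger share of 1 chain lowers those of the rest.

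**Figure D4:**
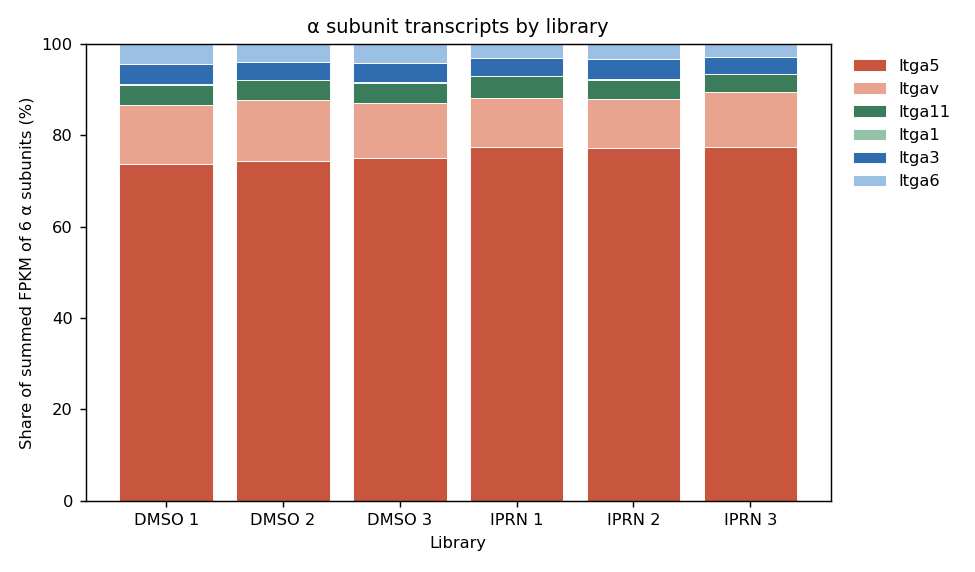
Share of the summed deposited FPKM of 6 integrin α subunits in each library (percent, stacked to 100). Itga5 takes 73.8% to 75.0% in the DMSO libraries and 77.2% to 77.4% in the IPRN libraries, and Itga1 is too small to see at its mean share of 0.0885% in DMSO.

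The remaining integrin genes were expressed at low levels, and edgeR called 0 of the 14 tested among 18 listed (5.47% of all tested genes). At an unadjusted p under 0.05, 1 was higher and 0 lower (11.2% and 10.8% of all tested genes). DESeq2 called 0 (7.49% higher and 7.28% lower). The median log2 fold change of the 14 was -0.04. Outside the naming rule, a few are given for their ligands. Itga8, another RGD-binding chain, measured 7.72 ± 0.362 and 5.93 ± 1.30 CPM in DMSO and IPRN (SD, n = 3), and Itga7, another laminin-binding chain, 5.04 ± 1.33 and 7.24 ± 0.865 CPM. Itgam, the α chain of a leukocyte integrin and also 1 of the 8 leukocyte markers, was named after its values were seen. It had 839 counts in IPRN 3 against 0 to 54 in the other 5 libraries, and shares 3450 exon bases with Gm49368. Itgb6 and Itgb2l were at 0 counts in all 6 libraries.

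Inside the cell, 5 of 34 tested genes of the integrin adhesion complex rose under IPRN in edgeR (2.46% of all tested genes rose) and 0 fell (3.01%). At an unadjusted p under 0.05, 15 were higher and 1 lower (11.2% and 10.8% of all tested genes), and DESeq2 called 12 higher and 0 lower (7.49% and 7.28%). The median of the 34 was 0.19 on the log2 scale, and for 17 of them IPRN lay above DMSO without overlap (14.9% of all tested genes). Talin 1, encoded by Tln1, binds integrin β tails and links them to actin. It measured 401.5, 401.8 and 420.8 CPM in DMSO and 544.8, 521.7 and 519.9 CPM in IPRN, a 1.30-fold rise (edgeR adjusted p = 0.00936). Each IPRN library lay above each DMSO library. The actin crosslinker gene Flna rose 1.31-fold and the α-actinin gene Actn1 1.23-fold. Smaller rises were those of Ilk, a pseudokinase that docks on β1 tails (1.20-fold), and Csk, the kinase that inactivates Src (1.17-fold).

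Several adhesion genes best known at the same sites did not pass. Focal adhesion kinase (Ptk2) measured 70.8 ± 0.203 and 68.9 ± 2.95 CPM (SD, n = 3), kindlin-2 (Fermt2) 123.0 ± 7.71 and 119.5 ± 1.34 CPM, and vinculin (Vcl) 194.6 ± 38.5 and 277.8 ± 56.8 CPM. Their edgeR adjusted p-values were 0.737, 0.746 and 0.159. These 3 were chosen after their values were seen, for their known roles. Tln1 was not called without DMSO 1 or DMSO 2 (adjusted p of 0.0642 and 0.0656), and Actn1, Ilk and Csk lost the call when any library but IPRN 1 was left out (0.0615 to 0.169), and under the liver term (0.0571, 0.0841 and 0.0860). Flna was called in all 6 of these fits, and the number of adhesion genes called was 1, 1 and 2 without DMSO 1, 2 and 3 and 2 without IPRN 2 or IPRN 3. Tln1, Actn1 and Ilk share exon bases with other models, so their sizes are uncertain.

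**Figure D5:**
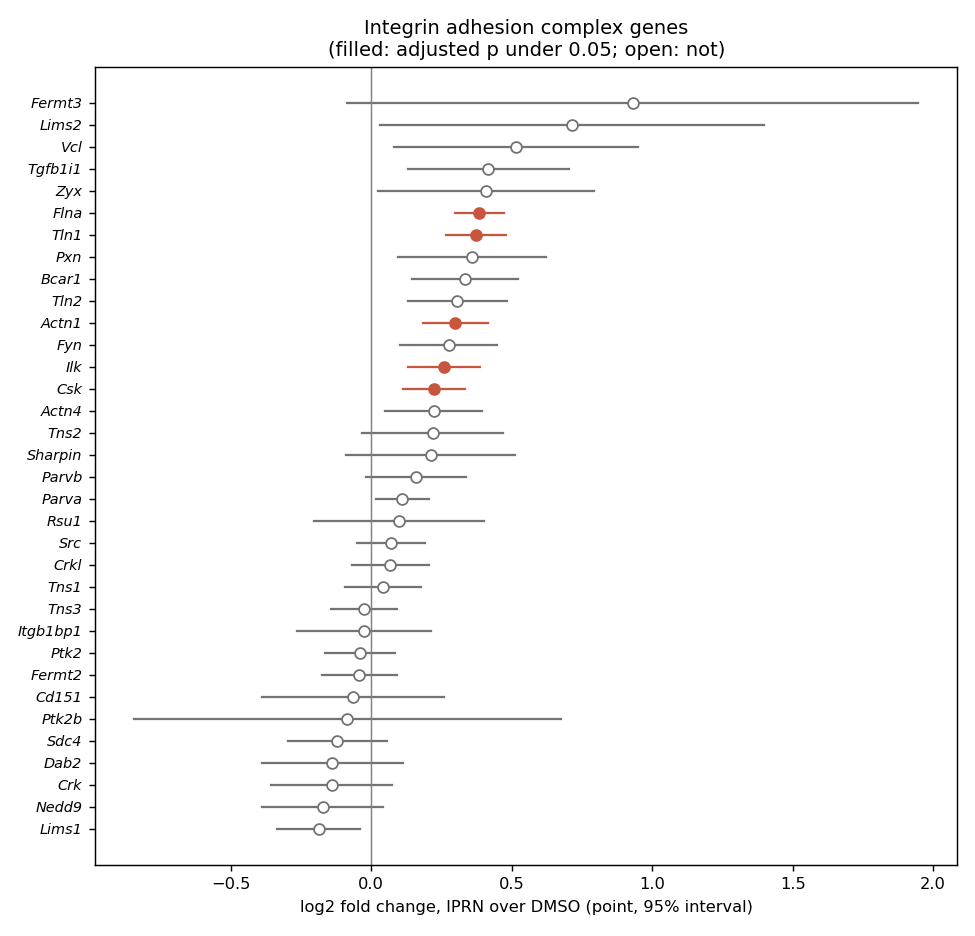
Log2 fold change of IPRN over DMSO (point) with its 95% interval (line) for the 34 tested integrin adhesion complex genes. The 5 filled points, Flna, Tln1, Actn1, Ilk and Csk, are those called by edgeR at an adjusted p under 0.05.

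Other ligands read by these receptors moved in both directions. Spp1, which encodes the RGD ligand osteopontin, fell 2.09-fold in edgeR (adjusted p = 0.000105). It measured 679.7, 649.9 and 694.1 CPM in DMSO and 330.8, 313.2 and 323.6 CPM in IPRN, so the 2 groups lay far apart relative to their spread. Spp1 was called in all 14 alternative fits, and it shares 309 exon bases with Gm42793. Fbn1, the gene of the RGD-containing microfibril protein fibrillin 1, rose 1.37-fold, from 442.7 ± 6.37 to 604.4 ± 23.4 CPM (SD, n = 3, edgeR adjusted p = 0.00517), and shares 2442 exon bases with Gm9913. These were the only edgeR calls among the 9 tested of 10 RGD ligands, 1 higher and 1 lower (2.46% and 3.01% of all tested genes). At an unadjusted p under 0.05, 3 were higher and 2 lower (11.2% and 10.8% of all tested genes). DESeq2 called 2 higher and 1 lower (7.49% and 7.28%). Vtn, the vitronectin gene, was among those that did not pass and measured 0.584 ± 0.565 and 0.872 ± 0.638 CPM. Vtn was counted in the liver list too.

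Of 10 tested laminin chains, 2 fell in edgeR (3.01% of all tested genes) and 0 rose (2.46%). At an unadjusted p under 0.05, 2 were lower and 0 higher (10.8% and 11.2% of all tested genes). DESeq2 also called 2 lower and 0 higher (7.28% and 7.49%). The vascular laminin chain gene Lama4 measured 114.0, 109.6 and 117.6 CPM in DMSO and 88.8, 86.9 and 87.6 CPM in IPRN. Every IPRN library was below every DMSO library. Lama4 fell 1.30-fold, from 113.7 ± 3.98 to 87.8 ± 0.955 CPM (SD, n = 3, edgeR adjusted p = 0.0117). It was not called without DMSO 1, DMSO 3 or IPRN 2 (0.0518 to 0.0673).

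The genes whose levels followed Fn1 most closely over the 6 libraries, among 4155 with a mean of at least 50 CPM, were Fscn1, Mmp14, Clip3, Myo1c and Ehd2 (Pearson r from 0.997 to 0.999 on log2 CPM). For Itga5 the closest included Tln1, Rbm15b, Myh9 and Cd248 (r from 0.994 to 0.996). Fn1 and Itga5 correlated with each other at 0.96, which placed Itga5 at rank 176 for likeness to Fn1. These values describe 6 points in 2 groups that share libraries and depth, and much of each r is the step between the groups.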

How the data were processed

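Polyadenylated RNA of 6 libraries was sequenced, with groups and numbers read from the titles. The authors deposited 1 table per library with a whole-number count and an FPKM value per gene, per the file headers. Per the labels' protocols no step marks the strand, so overlapping genes cannot be told apart. Reads were trimmed with cutadapt 1.9, per the submitters' processing notes, while aligner, counter, build and annotation were not given in the sources used here. GENCODE M21 shared 55141 IDs, of which 94.2% had identical coordinates on GRCm38. The deposited FPKM corresponded to a length of 1.11 times the union of GENCODE exons for 99.1% of 12980 genes (within 5%), so models with retained introns lower it.

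The count test was the quasi-likelihood test of edgeR 4.0.16 in R 4.3.3, after TMM scaling and edgeR's expression filter (minimum count 10), fitted to group alone. Benjamini-Hochberg adjustment of its two-sided p-values covered 17159 genes, and a call needed an adjusted p under 0.05. DESeq2 1.42.0 was an alternative. A floor of 3 counts was 0.0382 to 0.0497 CPM and covers counting error only. Chi-square per degree of freedom between replicates was 34.0 to 97.6, above sampling noise. Since no label calls them separate cultures, p-values reflect library-to-library spread only, possibly technical.

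The members and gene lists were chosen with earlier results of these data known. All 10 members were named. Of each companion list, the called members were named (at most 8), and for Fn1 and Itga5 the 5 genes of highest correlation. Some genes that this rule selects are not reported here. Alternatives were other scalings, filters, DESeq2, a replicate block, each library left out, DMSO 1 and IPRN 3 left out together, and a term for libraries with over 20 CPM of liver transcripts.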

Additional observations from a re-analysis of the deposited data

How the results depend on the processing

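For the 10 members, 129 of 140 alternative values kept both direction and side of the threshold, 10 lost a call, 1 gained one and 0 changed sign. The count of members called higher (2) was 0 with DMSO 1 and IPRN 3 left out together, and 0 to 3 with 1 library left out. The count of all genes called (938) was 621 without a low-count filter, 1908 with DESeq2, 429 with the liver term, 53 without DMSO 1 and IPRN 3, and 133 to 1047 with 1 library left out. The count of adhesion genes called higher (5), for which alternatives were added after the data were seen, was 3, 12, 2 and 0 under those 4 settings and 1 to 6 with 1 library left out. The upper end of these leave-one-out ranges came without IPRN 1. The cause was not tested.

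The replicate numbers showed no sign of pairing: deviations of same-numbered libraries correlated at -0.08, 0.02 and -0.06. Libraries of different numbers gave -0.07 to 0.12, and such values cannot establish that the samples were unpaired. With the replicate block, 103 genes, 0 members and 0 adhesion genes were called, and Fn1 and Itga5 kept log2 fold changes of 0.37 and 0.35 (edgeR adjusted p of 0.0717 and 0.0877). Depth limits Itga1, at 86 to 180 counts, more than any other member, and its SE of 0.33 also holds the spread between libraries.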
